A study of Drosophila melanogaster with 12 samples.

Results

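Among the genes that Drosophila salivary glands switch on when they carry an active Ras are many that still have no name, only a CG number from the annotation of the genome. The genes described here are the CG-numbered genes that were several-fold higher in every group of glands with RasV12 than in control glands. They were chosen by their measured levels. TPM (a read count corrected for transcript length and library size) were summed per gene and averaged over 3 replicates. A gene was taken if its symbol is CG followed by a number, if its mean was at least 5 TPM in each of the 3 groups with RasV12 and at least 4 times the w1118 mean after 0.5 TPM was added to the latter, and if its mean in the isolated proximal parts (PP) was below 3 times the larger of the means of the entire glands. Of 5979 CG-numbered genes among 13825 genes in all, 1564 reached 5 TPM in the 3 groups, 79 of these passed the limit of 4 times, and 75 remained after 4 were left out by the limit on the PP. The same limits took 131 genes with a proper name, of 3893 with 5 TPM in the 3 groups. This was 3.365%, beside 4.795% for the CG-numbered genes. All 75 are annotated as protein coding and all 75 had enough counts to be tested.

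The 12 libraries came from salivary glands of larvae at 96 h after egg deposition (AED), in 4 groups of 3 replicates, each a pool of dissected glands of larvae reared on food with antibiotics. The mothers carried BxGal4, an enhancer trap that drives expression in the secretory epithelium of the gland. By the sample labels the mothers of all groups also carried a Drs-GFP reporter for the antimicrobial peptide Drosomycin, whereas the study's list of crosses gives the reporter for lglRNAi;RasV12 but not for the w1118 and RasV12 crosses of its expression data. If that list is right, the reporter cannot be told apart from lglRNAi. The fathers were w1118 (the control, here w1118-glands), carried UAS-RasV12, or carried UAS-RasV12 together with UAS-l(2)glRNAi (lglRNAi;RasV12), a hairpin against the polarity gene lethal (2) giant larvae. The fourth group held only the PP of lglRNAi;RasV12-glands, which the sample labels call the posterior part and the study's methods the proximal part. PP of w1118-glands were not analysed here, so in the PP the larval genotype and the region of the gland cannot be told apart.

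Ras is a small GTPase that passes signals from receptor tyrosine kinases to the MAPK cascade, and RasV12 is a form locked in its active state. The larval salivary gland consists of large polyploid cells that do not divide, make glue proteins in bulk and respond to RasV12 with growth beyond their normal size. A CG number marks a gene predicted from the genome sequence. Such a gene may be well described as a member of a protein family and still lack a name because no mutant or function has been assigned to it. The annotation used here gives the 75 genes by number only, and the roles stated below come from synonyms listed by RefSeq or, where so marked, from general knowledge of the protein family.

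The libraries held between about 27584200 and 73043500 estimated counts. Ras85D lay between 21.4 and 23.5 TPM in w1118-glands and between 1181 and 2016 TPM in the 9 libraries with RasV12. The mRNA of l(2)gl, the target of the hairpin, lay between 29.96 and 40.4 TPM in entire lglRNAi;RasV12-glands, below the 45.5 to 56.7 TPM of RasV12-glands but above the 16.8 to 23.7 TPM of w1118-glands. In log2(TPM + 0.1) the median log2 fold change of all genes tested against w1118-glands was itself 0.63 in RasV12 and 0.71 in lglRNAi;RasV12. The difference of l(2)gl from w1118-glands is therefore not read as a change relative to other genes. Of 10 genes listed as targets of Ras/MAPK-signaling, 8, 8 and 10 passed the test as higher than in w1118-glands in RasV12, lglRNAi;RasV12 and the PP, and of 10 tested targets of JNK-signaling 7, 8 and 9 did. The 9 listed marker genes of the secretory gland were glue genes and the regulators fkh, CrebA and sage. The highest group mean among these regulators was 742 TPM (sage, w1118-glands), so glue genes made up nearly all of the sum. Together the 9 took 374433 to 503215 of every 1000000 transcripts in w1118-glands. They took 236439 to 282629 in entire glands with RasV12 and 99511 to 116281 in the PP. TPM of all other genes move with this share, and in bulk samples fewer cells of a type cannot be told apart from less RNA per cell. Marker genes of hemocytes summed to 7.01 to 22.2 TPM in every group, and those of the midgut stayed at or below 0.839 TPM except for 43.0 TPM in replicate 1 of the PP. Marker genes of the fat body, a tissue attached to the gland, summed to 11317 to 26812 TPM in w1118, 7714 to 11255 TPM in RasV12, 11618 to 16442 TPM in lglRNAi;RasV12 and 3232 to 3701 TPM in the PP. The 4 marker genes of the trachea, which also runs to the gland, summed to 11.5 to 12.7 TPM in w1118, 4.31 to 4.48 TPM in RasV12, 4.56 to 6.42 TPM in lglRNAi;RasV12 and 16.4 to 26.7 TPM in the PP, highest in the PP. Their part in the levels below was not tested.

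The 75 genes spanned more than 2 orders of magnitude in level. Over the 9 libraries with RasV12, 4 of them averaged more than 1000 TPM, 21 lay between 100 and 1000 TPM, 33 between 20 and 100 TPM and 17 between 5 and 20 TPM, with a median of 50.0 TPM. In w1118-glands the median was 3.90 TPM, 16 genes were below 1 TPM and 23 were above 10 TPM. The lowest of the 3 ratios that the choice of genes used had a median of 6.47 and lay between 4 and 6 for 33 genes, above 10 for 20 and above 20 for 9.

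CG14237 (FBgn0039428), a short gene on 3R, had the highest mean. Its TPM were 192, 205 and 227 in the 3 replicates of w1118-glands, 1993, 1441 and 918 with RasV12, 1921, 1449.8 and 1431 with lglRNAi;RasV12 and 2333, 4351 and 2755 in the PP. The PP libraries were the 3 highest, and the entire glands of both genotypes overlapped. CG15098 (FBgn0034398) on 2R was, in TPM, the most even of the abundant genes in w1118-glands, at 302, 287 and 287 TPM. It had 1876, 1426 and 1296 TPM with RasV12, 2119, 1707 and 1798 TPM with lglRNAi;RasV12 and 1223, 1616 and 1526 TPM in the PP. The RasV12 libraries overlapped with both other groups, and the PP libraries lay below those of lglRNAi;RasV12 in TPM. In counts scaled by library size (CPM, explained below) the PP and lglRNAi;RasV12 libraries overlapped, and CG14237 was more even in w1118-glands. CG13510 (FBgn0034758) belongs, as background, to the family of LITAF-like membrane proteins of late endosomes. It was measured at 125, 111 and 137 TPM in w1118-glands, 1485, 1051 and 866 TPM with RasV12, 2029, 1172 and 1356 TPM with lglRNAi;RasV12 and 893, 1450.1 and 927 TPM in the PP.

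CG10126 (FBgn0038088) varied least with RasV12 among the genes above 1000 TPM, at 161, 148 and 169 TPM in w1118-glands and at 1301, 1338 and 1241 TPM with RasV12, 1434, 1095 and 1189.6 TPM with lglRNAi;RasV12 and 1071, 1275 and 1149 TPM in the PP. None of its 9 libraries with RasV12 fell below 1071 TPM. The next genes by level were CG1572, at 66.1 ± 7.82 TPM in w1118-glands and 719.7 ± 58.9, 839.7 ± 182 and 843 ± 191 TPM in RasV12, lglRNAi;RasV12 and the PP (mean ± SD, n = 3 each), and CG15784, described below. CG7720, listed by RefSeq as dSLC5A1 after the SLC5 family of sodium-coupled solute carriers, had 26.5 ± 8.22 TPM in w1118-glands and 281 ± 23.98, 270.0 ± 39.9 and 316 ± 56.00 TPM in the same order (SD, n = 3). CG12012 had 15.4 ± 2.28 TPM in w1118-glands and 252 ± 92.4, 376 ± 84.5 and 187 ± 30.7 TPM (SD, n = 3), with its lowest mean in the PP.

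**Figure D1:**
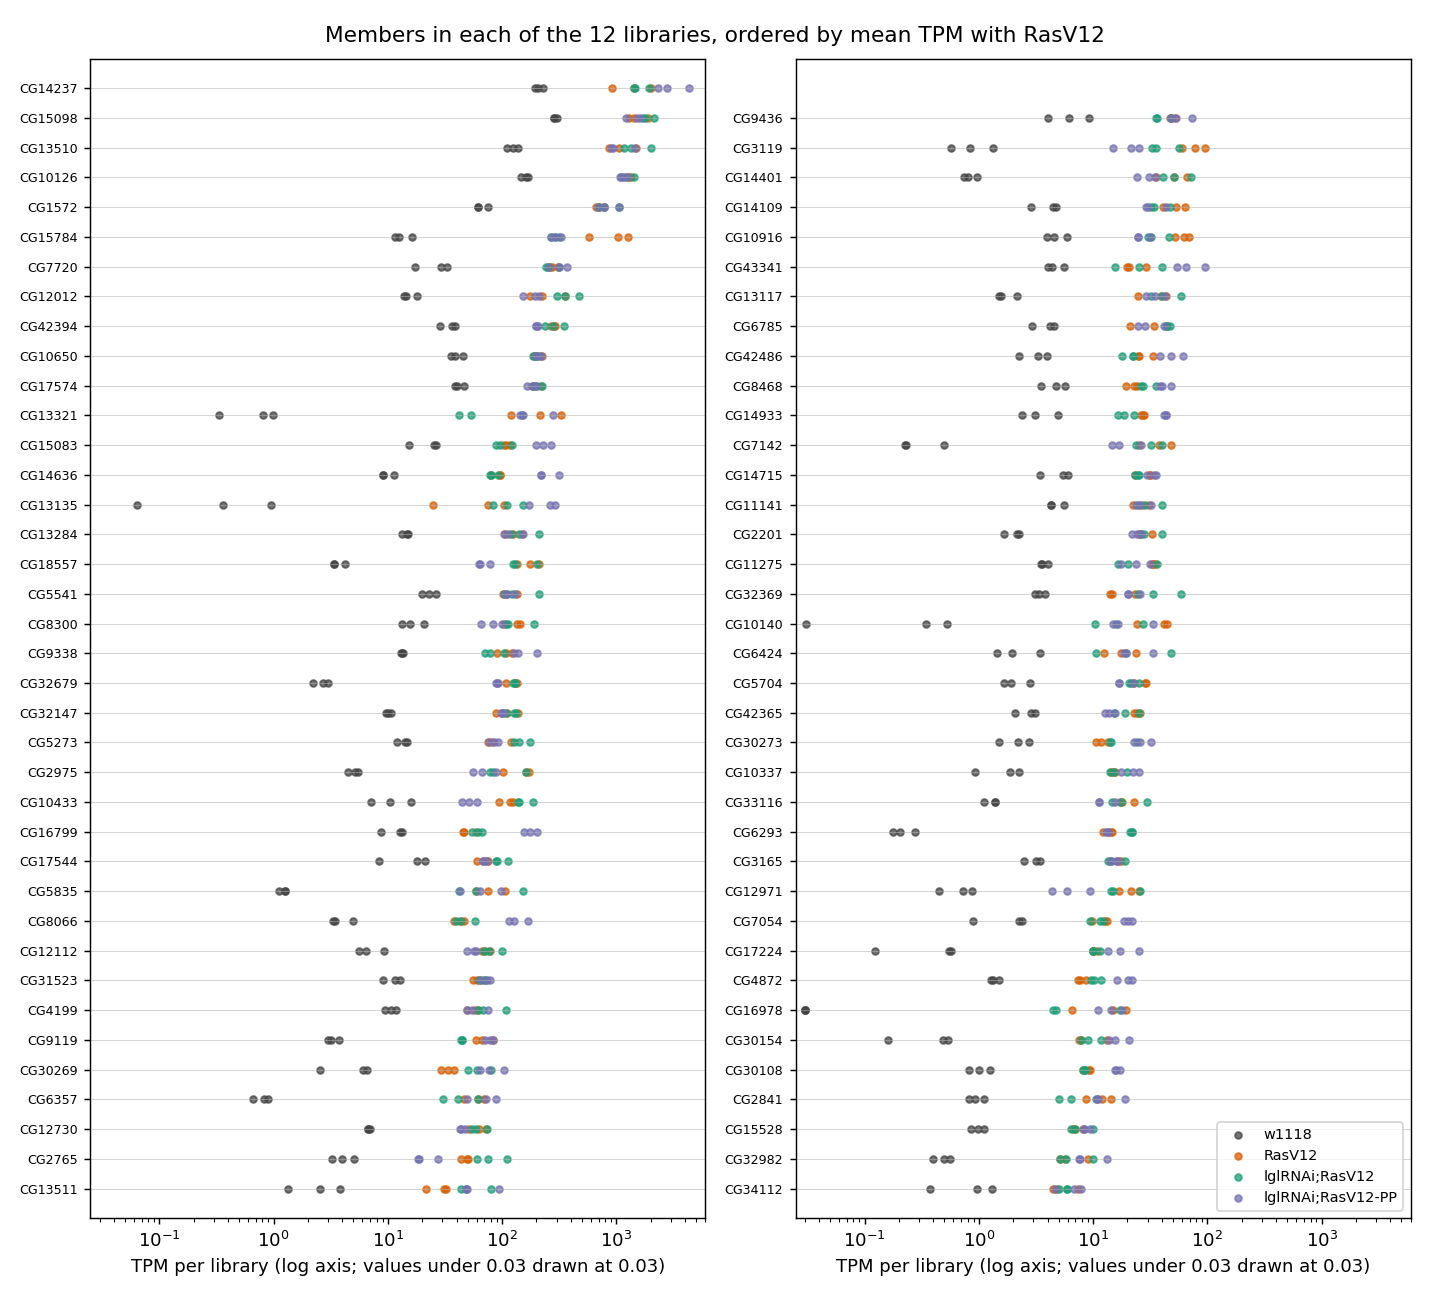
TPM of each of the 75 genes (rows) in each of the 12 libraries (points, coloured by group), on a log axis, in order of the mean over the 9 libraries with RasV12. The w1118 points of every row lie to the left of all others, which follows largely from the choice of genes, and the rows run from CG14237 with 918 to 4351 TPM to CG34112 with 4.48 to 7.81 TPM in glands with RasV12.

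Another set held the genes with the highest of the lowest ratios, with w1118 means of at most 2.64 TPM. CG13135 (FBgn0032184) on 2L had the highest of the lowest ratios, 70.9, with TPM of 0.361, 0.0644 and 0.943 in w1118-glands against 104, 74.6 and 24.8 with RasV12, 154, 109 and 82.8 with lglRNAi;RasV12 and 173, 263 and 289 in the PP. Its RasV12 replicates differed more than 4-fold and overlapped with those of lglRNAi;RasV12, and its 3 PP libraries were the highest. CG13321 (FBgn0033787) on 2R was at 0.806, 0.994 and 0.332 TPM in w1118-glands, 326, 215 and 119 TPM with RasV12, 149, 41.7 and 53.3 TPM with lglRNAi;RasV12 and 153, 276 and 144 TPM in the PP. Its lowest 2 values with RasV12 both came from entire lglRNAi;RasV12-glands. CG5835 on 3R had 1.25, 1.26 and 1.12 TPM in w1118-glands and between 42.0 and 152 TPM in the 9 other libraries, both extremes in lglRNAi;RasV12-glands.

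CG7142, listed as the serine protease SP132, was at 0.233, 0.497 and 0.224 TPM in w1118-glands, 48.1, 37.5 and 25.2 TPM with RasV12, 39.9, 23.7 and 31.98 TPM with lglRNAi;RasV12 and 16.7, 26.5 and 14.6 TPM in the PP. CG18557 is listed as the clip-domain serine protease homologue c-SPH125 and was not of this set by its ratio. It had 3.36, 4.24 and 3.37 TPM in w1118-glands, 211, 177 and 135 TPM with RasV12, 202, 124 and 129.9 TPM with lglRNAi;RasV12 and 63.2, 79.1 and 63.7 TPM in the PP. Such homologues carry a protease fold without catalytic activity. For CG18557 the PP libraries lay below all 6 libraries of entire glands with RasV12.

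By general knowledge of their families, CG6357 is a cathepsin-like cysteine protease, CG32679 a secreted protein of the CAP superfamily and CG10140 a protein with chitin-binding domains. CG6357 had 0.793 ± 0.120 TPM in w1118-glands and 59.2 ± 11.9, 44.4 ± 16.1 and 69.9 ± 19.2 TPM in RasV12, lglRNAi;RasV12 and the PP (SD, n = 3). CG32679 was the steadiest of this set, with 2.64 ± 0.378 TPM in w1118-glands and 124 ± 15.1, 128 ± 2.51 and 90.3 ± 1.82 TPM (SD, n = 3), and its PP libraries lay below all entire glands with RasV12. CG10140 had 0.300 ± 0.249 TPM in w1118-glands and 36.8 ± 10.9, 18.01 ± 8.70 and 21.6 ± 10.1 TPM (SD, n = 3). CG14401, a member of the Ly6 family of small proteins anchored to the membrane, had 0.833 ± 0.112 TPM in w1118-glands and 51.2 ± 15.6, 54.4 ± 15.8 and 29.8 ± 5.41 TPM (SD, n = 3).

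CG16978 on 2L was the single gene of the 75 with no more than 3 counts in any w1118 library and had none in all 3. Set against a floor of 3 counts in a single w1118 library, the mean CPM of RasV12-glands was at least 18.2-fold higher, that of lglRNAi;RasV12-glands at least 11.2-fold higher and that of the PP at least 20.2-fold higher. Its TPM were 19.5, 14.96 and 6.51 with RasV12, 17.3, 4.74 and 4.44 with lglRNAi;RasV12 and 11.1, 17.8 and 14.4 in the PP, and the entire lglRNAi;RasV12-glands differed most among themselves.

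Among genes with roles inside the cell, named here for their listed role and not by level, CG3165 (TREX, after the exonucleases that degrade single DNA strands in mammals) was at 3.05 ± 0.492 TPM in w1118-glands and 16.1 ± 1.75, 15.6 ± 3.09 and 15.5 ± 1.37 TPM in RasV12, lglRNAi;RasV12 and the PP (SD, n = 3). CG14715 (FKBP13, after the prolyl isomerases that bind FK506 and assist protein folding) was at 4.97 ± 1.37 TPM in w1118-glands and 28.7 ± 4.56, 24.3 ± 0.953 and 33.3 ± 3.12 TPM (SD, n = 3). Both were low in every group. By family, CG17544 is an acyl-CoA oxidase of peroxisomal fatty acid oxidation and CG31523 an elongase of very long chain fatty acids. CG17544 had 15.8 ± 6.61 TPM in w1118-glands and 68.6 ± 7.45, 97.5 ± 13.95 and 69.6 ± 3.01 TPM (SD, n = 3). CG31523 had 11.1 ± 1.86 TPM in w1118-glands and 61.1 ± 5.88, 68.1 ± 4.67 and 71.9 ± 7.31 TPM (SD, n = 3), which overlapped between the 3 groups with RasV12.

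On the scale of edgeR, which uses counts divided by library size (CPM) scaled by TMM, a factor that corrects for a few genes taking much of a library, the 75 genes had a median log2 fold change against w1118-glands of 2.50 in RasV12 (range 1.44 to 9.62), 2.62 in lglRNAi;RasV12 (1.44 to 8.94) and 2.96 in the PP (1.58 to 9.78). The upper ends are fitted values of CG16978, which has no counts in w1118-glands, and are no measured folds. The medians over all 9012 genes tested were -0.0010, 0.015 and 0.097. All 75 were past the limits used for a call, a change of at least 2-fold (1 on the log2 scale) with an adjusted p of at most 0.05, in each of the 3 groups, where 11.3%, 12.1% and 15.7% of all genes were called higher. All 75 also had replicates that did not overlap with w1118-glands, against 30%, 31.8% and 36.8% of all genes that were higher without overlap. These are contrasts that chose the genes and share the w1118 libraries, so the counts follow from the choice and no p-value is given.

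The size of the set depended on the scaling. TPM divided by the TMM factors, which lowers the ratios to w1118, took 49 of the 75 genes and no others. A limit of 3 times took 122 genes and one of 6 times 42. CG34112 (lowest ratio 4.04) and CG16799 (4.17) stood just inside the limit, and CG10359 (3.98) and CG6770 (3.97) just outside. When each library was left out in turn the rule took 68 to 82 genes. Of the 75, 61 were taken every time and 14 were not, among them CG16799, CG34112 and CG43341.

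The comparison of lglRNAi;RasV12- with RasV12-glands asks what the hairpin against l(2)gl adds to RasV12. The choice of genes did not compare these 2 groups with each other, but both means had to pass the same limits against w1118-glands, which leaves out genes that fall far in one of them. The median log2 fold change of the 75 genes was 0.0031, beside 0.0097 for all genes tested, and 38 genes were above and 37 at or below 0. By the quasi-likelihood test of edgeR, adjusted after Benjamini-Hochberg over 9012 genes, 1 of the 75 was higher in lglRNAi;RasV12-glands and 2 were lower. This was 4% of the 75, where 3.32% of all genes passed (2.02% higher and 1.3% lower). As the limits bound how far the 75 genes could differ, nothing is read from the shares set beside those of all genes here and below. At an unadjusted p under 0.05 there were 18 of the 75 (24%, against 29.1% of all genes), and 19 (25.3%, against 36.7%) had replicates of both groups without overlap.

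CG15784 (FBgn0029766) on X, a gene without a listed role, differed most. Its TPM were 1266, 1027 and 579 with RasV12, 269, 318 and 289 with lglRNAi;RasV12 and 328, 292 and 268 in the PP, against 16.2, 12.6 and 11.5 in w1118-glands. All 3 RasV12 libraries were above all 6 libraries with lglRNAi, which did not separate between entire gland and PP. CG15784 fell by 1.79 on the log2 scale (SE 0.27) in lglRNAi;RasV12- compared with RasV12-glands (adjusted p = 0.00194, edgeR), and its mean TPM there was still 21.0 times the w1118 mean with 0.5 TPM added. It kept this call under every alternative, with a log2 fold change between -2.16 and -1.56.

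CG3119 (FBgn0031466) on 2L, listed as dC1GalT7 after the enzymes that add the core 1 galactose to O-linked glycans, had 96.00, 78.8 and 60.1 TPM with RasV12, 56.3, 32.6 and 35.7 TPM with lglRNAi;RasV12, 21.4, 25.02 and 14.9 TPM in the PP and 1.34, 0.573 and 0.832 TPM in w1118-glands. The lowest RasV12 library was above the highest of lglRNAi;RasV12, which in turn was above all of the PP. CG3119 fell by 1.03 on the log2 scale (SE 0.24, adjusted p = 0.0188, edgeR) in lglRNAi;RasV12- compared with RasV12-glands. CG32369 (FBgn0052369) on 3L had 23.3, 13.98 and 14.6 TPM with RasV12, 58.3, 24.9 and 33.4 TPM with lglRNAi;RasV12, 20.1, 25.8 and 20.1 TPM in the PP and 3.10, 3.76 and 3.33 TPM in w1118-glands. It was the 1 gene that rose, with a log2 fold change of 1.10 (SE 0.27, adjusted p = 0.0221, edgeR), and replicate 1 of lglRNAi;RasV12 carried much of the difference. Without that library the log2 fold change was 0.72 (adjusted p = 0.0616, edgeR), and without replicate 2 or 3 of RasV12 it was 0.98 (adjusted p = 0.0902 and 0.088, edgeR). CG3119 likewise missed the limits when replicate 1 or 2 of RasV12 or replicate 2 or 3 of lglRNAi;RasV12 was left out (adjusted p = 0.0617 to 0.0789, edgeR).

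At an adjusted p of at most 0.05 alone, without the limit of 2-fold, 3 genes lay higher and 6 lay lower once lglRNAi was added, 4% and 8% of the 75, against 7.18% and 5.12% of all genes. Besides the 3 genes above these were CG6293 (log2 fold change 0.59, adjusted p = 0.00202, edgeR) and CG2765 (0.71, adjusted p = 0.0362) on the higher side. On the lower side were CG9119 (-0.72, adjusted p = 0.00465), CG10916 (-0.83, adjusted p = 0.0106), and CG42486 (-0.67, adjusted p = 0.00773) and CG14933 (-0.56, adjusted p = 0.0311), which both belong to the family of Kazal-type serine protease inhibitors and overlap on 2L. CG13321 had a log2 fold change of -1.52 (SE 0.49) and did not pass (adjusted p = 0.0642, edgeR). Its replicates ran from 41.7 to 149 TPM in lglRNAi;RasV12 and from 119 to 326 TPM in RasV12. Leaving out replicate 1 of lglRNAi;RasV12 brought the number of lower genes from 2 to 5, with CG13321 at -2.25 among them.

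**Figure D2:**
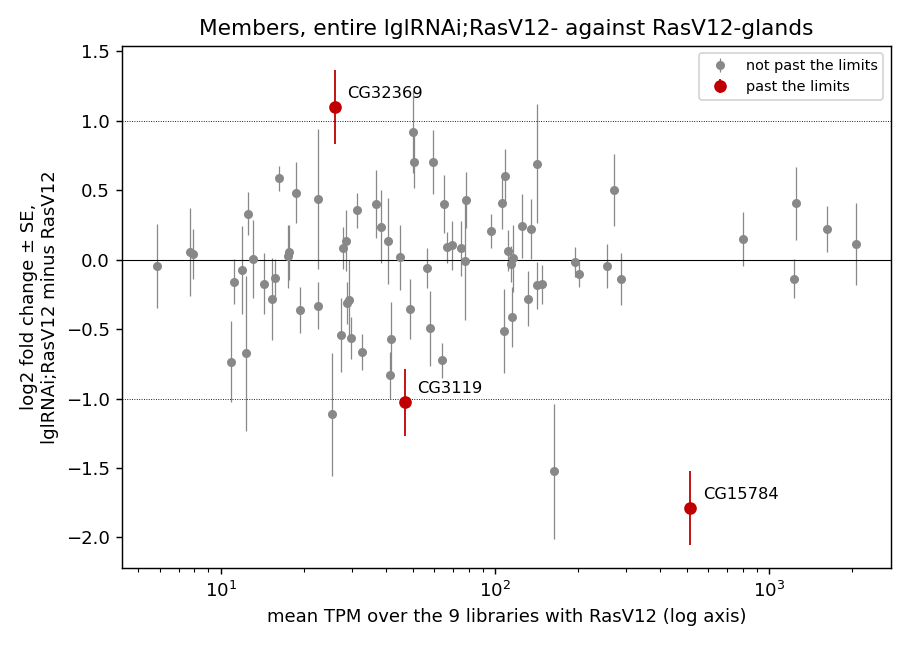
Log2 fold change of each of the 75 genes in entire lglRNAi;RasV12-glands compared with RasV12-glands (vertical axis, points, bars ± SE from edgeR) against its mean TPM over the 9 libraries with RasV12 (horizontal log axis). Most points lie between the dotted lines at -1 and 1, and CG15784 (-1.79), CG3119 (-1.03) and CG32369 (1.10) are the 3 past both limits.

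Along the gland the 75 genes spread in both directions. By group means in TPM, 33 genes were highest in the PP, 27 in entire lglRNAi;RasV12-glands and 15 in RasV12-glands. The same split was not counted over all genes, and TPM move with the share of the glue genes, so nothing is read from it. Because the rule capped the PP at 3 times the entire glands, this split and the following are a description. On the CPM scale, 20 of the 75 (26.7%) had all 3 PP libraries above all 6 libraries of entire glands with RasV12, beside 18.9% of all genes tested, 7 (9.33%) had them below, beside 15.2%, and 48 overlapped. The median log2 fold change of the PP against entire lglRNAi;RasV12-glands was 0.20 for the 75 genes and 0.0049 for all genes tested, but it was -0.043 for the 75 without replicate 2 of the PP.

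CG16799 (FBgn0034538) on 2R, of the lysozyme family of enzymes that cleave bacterial cell walls, had the highest ratio of PP to entire glands. It lay at 175, 156 and 202 TPM in the PP, 45.3, 46.8 and 59.4 TPM with RasV12, 54.9, 67.1 and 61.1 TPM with lglRNAi;RasV12 and 8.70, 12.9 and 13.3 TPM in w1118-glands. CG8066 (FBgn0038243) on 3R, of the cystatin family of cysteine protease inhibitors, lay at 127, 167 and 114 TPM in the PP, 37.6, 46.4 and 42.5 TPM with RasV12, 57.6, 39.2 and 44.1 TPM with lglRNAi;RasV12 and 3.43, 3.34 and 4.92 TPM in w1118-glands. For both the PP mean was close to the limit, at 2.91 and 2.90 times the larger mean of entire glands. CG14636 on 3R followed with 252 ± 55.2 TPM in the PP and 90.8 ± 8.79 and 83.7 ± 6.79 TPM in entire RasV12- and lglRNAi;RasV12-glands (SD, n = 3). CG43341 on 2R had 72.00 ± 21.6 TPM in the PP and 23.3 ± 5.25 and 26.9 ± 12.2 TPM in the same entire glands (SD, n = 3).

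At the other end, CG12971 (FBgn0037078) on 3L had 5.94, 9.32 and 4.34 TPM in the PP, 24.99, 21.5 and 16.99 TPM with RasV12, 25.7, 14.5 and 14.8 TPM with lglRNAi;RasV12 and 0.451, 0.866 and 0.725 TPM in w1118-glands. CG2765 (FBgn0035087) on 2R had 27.7, 18.3 and 18.7 TPM in the PP, 49.98, 43.7 and 49.1 TPM with RasV12, 111, 60.3 and 74.7 TPM with lglRNAi;RasV12 and 3.25, 5.03 and 3.96 TPM in w1118-glands. For both, every PP library stood between w1118-glands and the entire glands with RasV12. CG10433 on 2R had 52.00 ± 8.23 TPM in the PP against 112 ± 16.1 and 155 ± 28.6 TPM in entire RasV12- and lglRNAi;RasV12-glands (SD, n = 3), and CG3119, above, was lower in the PP as well. The 4 genes that the limit on the PP kept out went much further, from CG13947 with a PP mean of 3.56 times the larger mean of entire glands to CG12506 with 16.4 times.

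**Figure D3:**
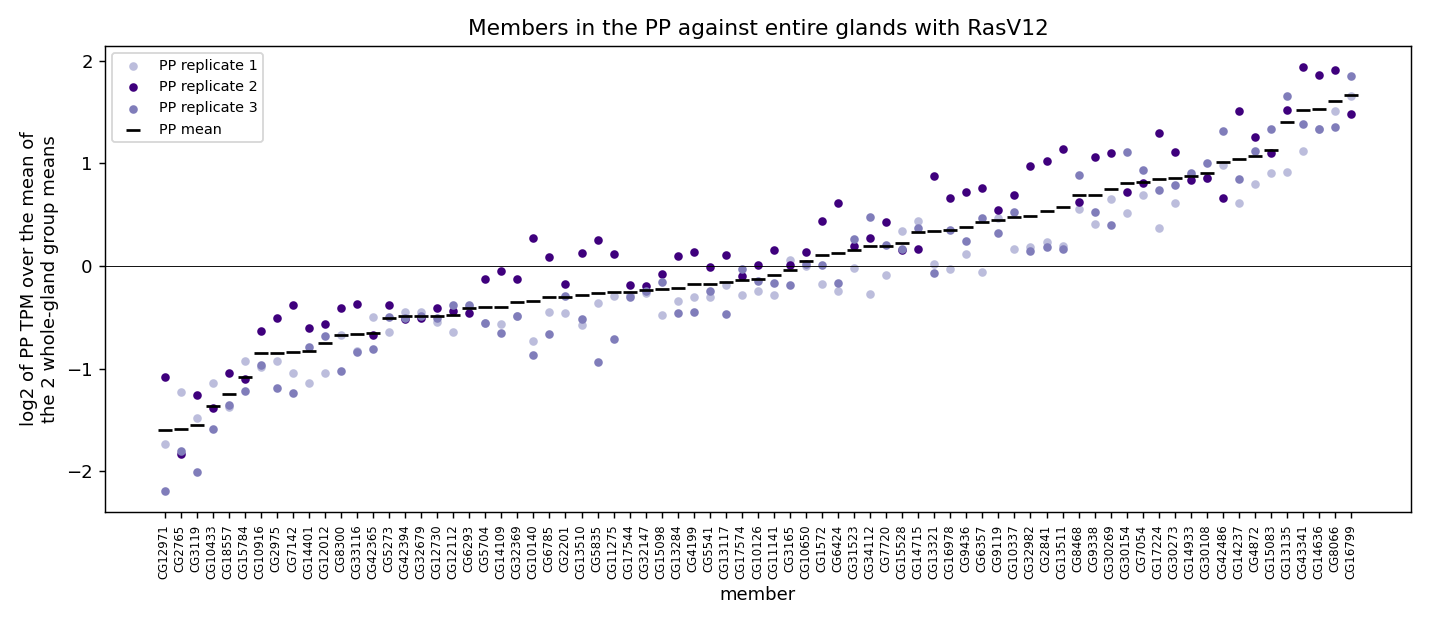
Log2 of the TPM of each PP replicate (points) and of the PP mean (dashes) over the mean of the 2 group means of entire glands with RasV12, for the 75 genes in rising order (horizontal axis). The dashes run from CG12971, with a PP mean 0.331 times that of entire glands, to CG16799 with 3.18 times, and the dark points of replicate 2 lie above those of the other replicates for most genes.

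Within a group the 75 genes moved together from replicate to replicate. Replicate 1 of lglRNAi;RasV12 was above the mean of its 2 other replicates for 64 of 75 genes, with a median difference of 0.39 in log2(CPM + 0.1). Replicate 2 of the PP was above for 72 genes, by a median of 0.47, and replicate 3 of RasV12 was above for only 14, with a median of -0.36. The corresponding medians over all genes tested lay between -0.03 and 0.01 in these 9 libraries. In w1118-glands the medians of the 75 genes lay between -0.10 and 0.05. The median coefficient of variation of the 75 genes was 15.5% in RasV12, 18.5% in lglRNAi;RasV12 and 22.2% in the PP, beside 10.52%, 11.2% and 11.2% for all genes tested.

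The same libraries differed in other measures. In each of the 3 groups with RasV12 the library in which the 75 genes were highest also had the highest summed TPM of the 12 listed JNK target genes. These sums were 572, 378 and 370 TPM in replicates 1, 2 and 3 of RasV12, 832, 448 and 524 TPM in lglRNAi;RasV12 and 423, 661 and 474 TPM in the PP. The same 3 libraries had the highest summed TPM of the 10 listed Ras/MAPK target genes, which were 119.6, 85.4 and 93.6 TPM in replicates 1, 2 and 3 of RasV12, 164, 125 and 133 TPM in lglRNAi;RasV12 and 129.7, 140.1 and 131 TPM in the PP. Replicate 1 of lglRNAi;RasV12 and replicate 2 of the PP were also the deepest of their groups, at about 48540700 and 73043500 counts, and had the lowest Ras85D of their groups at 1272 and 1181 TPM, while replicate 3 of RasV12 had the highest Ras85D at 2016 TPM. The part of these measures in the levels of the 75 genes was not tested.

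**Figure D4:**
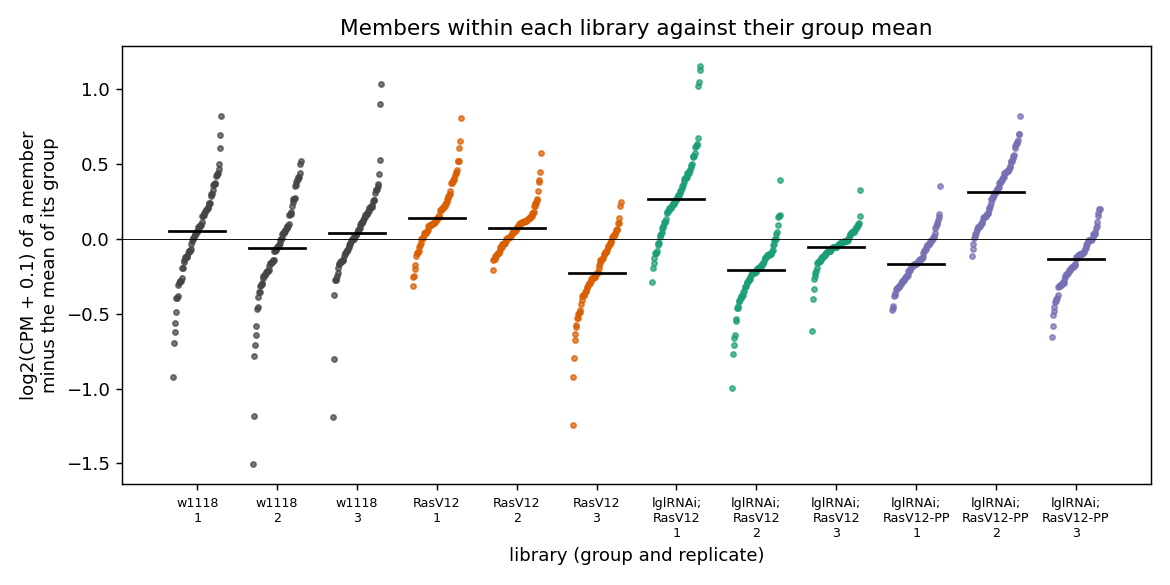
Difference of each of the 75 genes (points) from the mean of its group, in log2(CPM + 0.1), in each of the 12 libraries (horizontal axis), with the median of each library as a black line. Replicate 1 of lglRNAi;RasV12 and replicate 2 of the PP are shifted up (64 and 72 of 75 genes above the mean of the group) and replicate 3 of RasV12 is shifted down (14 of 75).

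The genes were spread over all major chromosome arms, 20 on 2L, 22 on 2R, 8 on 3L, 14 on 3R and 11 on X. Both arms of the second chromosome held a larger share (26.7% and 29.3%) than among the other 1489 CG-numbered genes with at least 5 TPM in the 3 groups (17.2% and 19.1%), and 3L a smaller one (10.7% against 19.5%). As a description, with no test, 17 of the 75 had another of the 75 within 10 kb, in 14 pairs, 3 of them overlapping. The same count was not made for other sets of genes, so nothing is read from its size. The genes around the 75 were not chosen by the rule. Of 294 other tested genes within 10 kb of any of the 75, 60 (20.4%), 63 (21.4%) and 77 (26.2%) were called higher than in w1118-glands in RasV12, lglRNAi;RasV12 and the PP, against 11.3%, 12.1% and 15.7% of all genes. Of the 259 of these whose gene bodies did not overlap one of the 75, it was 54 (20.8%), 52 (20.1%) and 70 (27.03%).

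A run of neighbours lay on 2L (assembly dm6) around CG3119 (chr2L:2834887-2837833), CG2975 (chr2L:2840124-2842638) and CG18557 (chr2L:2844601-2845734). CG2975 is listed as dC1GalT4, of the same galactosyltransferase family as CG3119. It was at 5.53, 4.45 and 5.13 TPM in w1118-glands, 172, 162 and 102 TPM with RasV12, 163, 79.1 and 82.6 TPM with lglRNAi;RasV12 and 66.8, 89.2 and 55.5 TPM in the PP. As for CG3119 and CG18557 its highest library was a RasV12-gland and its PP mean was the lowest of the 3 groups. Between and beside them, Cpr23B, a cuticular protein gene by name, CG18558, CG2983 and CG3104 were also called higher in all 3 groups, with log2 fold changes of 3.61, 4.51, 3.21 and 3.21 in RasV12. CG18558 shares exonic sequence with CG2975 on the opposite strand, so its reads cannot be told apart from those of the more abundant CG2975. The means of all 4 were below 0.5 TPM in w1118-glands and below 10 TPM elsewhere. CG3117, which follows CG18557 directly, was not called, with log2 fold changes of -0.30, -0.31 and -0.99 in RasV12, lglRNAi;RasV12 and the PP.

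A further run on 2L held genes of the Ly6 family. CG9338 (chr2L:20865215-20867709) was at 13.4, 13.1 and 13.7 TPM in w1118-glands, 109, 122 and 90.7 TPM with RasV12, 104, 70.4 and 78.8 TPM with lglRNAi;RasV12 and 127, 200.2 and 138 TPM in the PP. CG14401 (chr2L:20869854-20871565) lies 2145 bp further on the same strand and, other than CG9338, had its lowest mean with RasV12 in the PP. Beside them bero, a named Ly6 gene, went from a mean of 24.9 TPM in w1118-glands to 1930, 1688 and 1993 TPM in RasV12, lglRNAi;RasV12 and the PP. CG31675, between CG9338 and CG14401, was called higher in all 3 groups but stayed below 0.5 TPM, and CG14400 was not called in entire glands and was lower in the PP (log2 fold change -1.80). CG14401 shares exonic sequence with sky and CG43739 on the opposite strand, so reads there cannot be told apart. The means of sky were 5.32 TPM in w1118-glands and 27.7, 38.4 and 14.9 TPM in RasV12, lglRNAi;RasV12 and the PP. How far this overlap affects the levels of CG14401 was not tested.

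The largest run by number, on 2R, held the LITAF-like genes CG13510, CG13511, CG30269 and CG30273. CG13510 and CG13511 share 1 annotated transcript with identical exons, and so do CG30269 and CG30273, so counts cannot be divided between the genes of a pair with certainty. CG13511 was at 2.56 ± 1.24 TPM in w1118-glands and 28.4 ± 6.0, 57.6 ± 20.1 and 63.9 ± 26.5 TPM in RasV12, lglRNAi;RasV12 and the PP (SD, n = 3). CG30269 was at 5.06 ± 2.19 TPM in w1118-glands and 33.7 ± 4.41, 63.4 ± 15.1 and 81.5 ± 20.5 TPM (SD, n = 3), and CG30273 at 2.15 ± 0.623, 11.9 ± 1.40, 17.6 ± 5.69 and 26.7 ± 4.77 TPM (SD, n = 3). For these 3 genes, other than for CG13510, the means were lowest in RasV12, intermediate in lglRNAi;RasV12 and highest in the PP, but none passed the test between entire glands (adjusted p = 0.0654 for CG13511 and 0.0659 for CG30269, edgeR). Of 12 other tested genes in this stretch 6, 4 and 7 were called higher in the 3 groups. Over all genes tested it was 11.3%, 12.1% and 15.7%. Among those called in all 3 groups were CG42565, CG42566 and CG13516. CG42565 shares exons with CG13510 and CG13511 on the same strand, so its counts cannot be divided from theirs with certainty.

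The remaining pairs were of 2 genes each. CG14933 (chr2L:11842828-11844012) and CG42486 (chr2L:11843137-11844063), the Kazal-type inhibitors, overlap by 876 bp on the same strand. Their levels ran in parallel, at 3.47 ± 1.29 and 3.15 ± 0.843 TPM in w1118-glands, 27.2 ± 1.01 and 27.9 ± 4.94 TPM with RasV12, 19.5 ± 3.24 and 20.98 ± 2.52 TPM with lglRNAi;RasV12 and 42.9 ± 1.15 and 49.4 ± 11.2 TPM in the PP (SD, n = 3), and reads of the shared stretch cannot be assigned to 1 gene by position. Of 5 other tested genes around this pair, 1, 0 and 0 were called higher in RasV12, lglRNAi;RasV12 and the PP, beside 11.3%, 12.1% and 15.7% of all genes. CG31704 was called lower in all 3 groups (log2 fold changes -2.12, -3.69 and -1.86), and Pde1c in both groups of entire glands (-1.13 and -1.20). CG15083, 488 bp from CG15098 on the opposite strand, was at 22.3 ± 6.10 TPM in w1118-glands and 110.3 ± 6.63, 102 ± 18.03 and 232 ± 34.7 TPM in RasV12, lglRNAi;RasV12 and the PP (SD, n = 3). It was higher in the PP than in all entire glands, which CG15098 was not. Of 3 other tested genes around CG15083 and CG15098, 2 were called higher in each of the 3 groups. CG14109, 440 bp from CG10140 on 3L, had 4.04 ± 1.02, 52.8 ± 11.8, 37.7 ± 8.16 and 34.4 ± 8.18 TPM in w1118, RasV12, lglRNAi;RasV12 and the PP (SD, n = 3). Around CG14109 and CG10140, 1 of 4 other tested genes was called higher in each of the 3 groups. CG10337 and CG33116 (listed as dCCS1), 8013 bp apart on 2L, stayed low, with means of 14.9 and 19.3 TPM in RasV12, 16.3 and 20.7 TPM in lglRNAi;RasV12 and 21.7 and 12.7 TPM in the PP. CG10337 shares exonic sequence on the opposite strand with the more abundant ref(2)P, so reads there cannot be told apart. The means of ref(2)P were 58.5 TPM in w1118-glands and 186, 186 and 152 TPM in the same 3 groups.

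**Figure D5:**
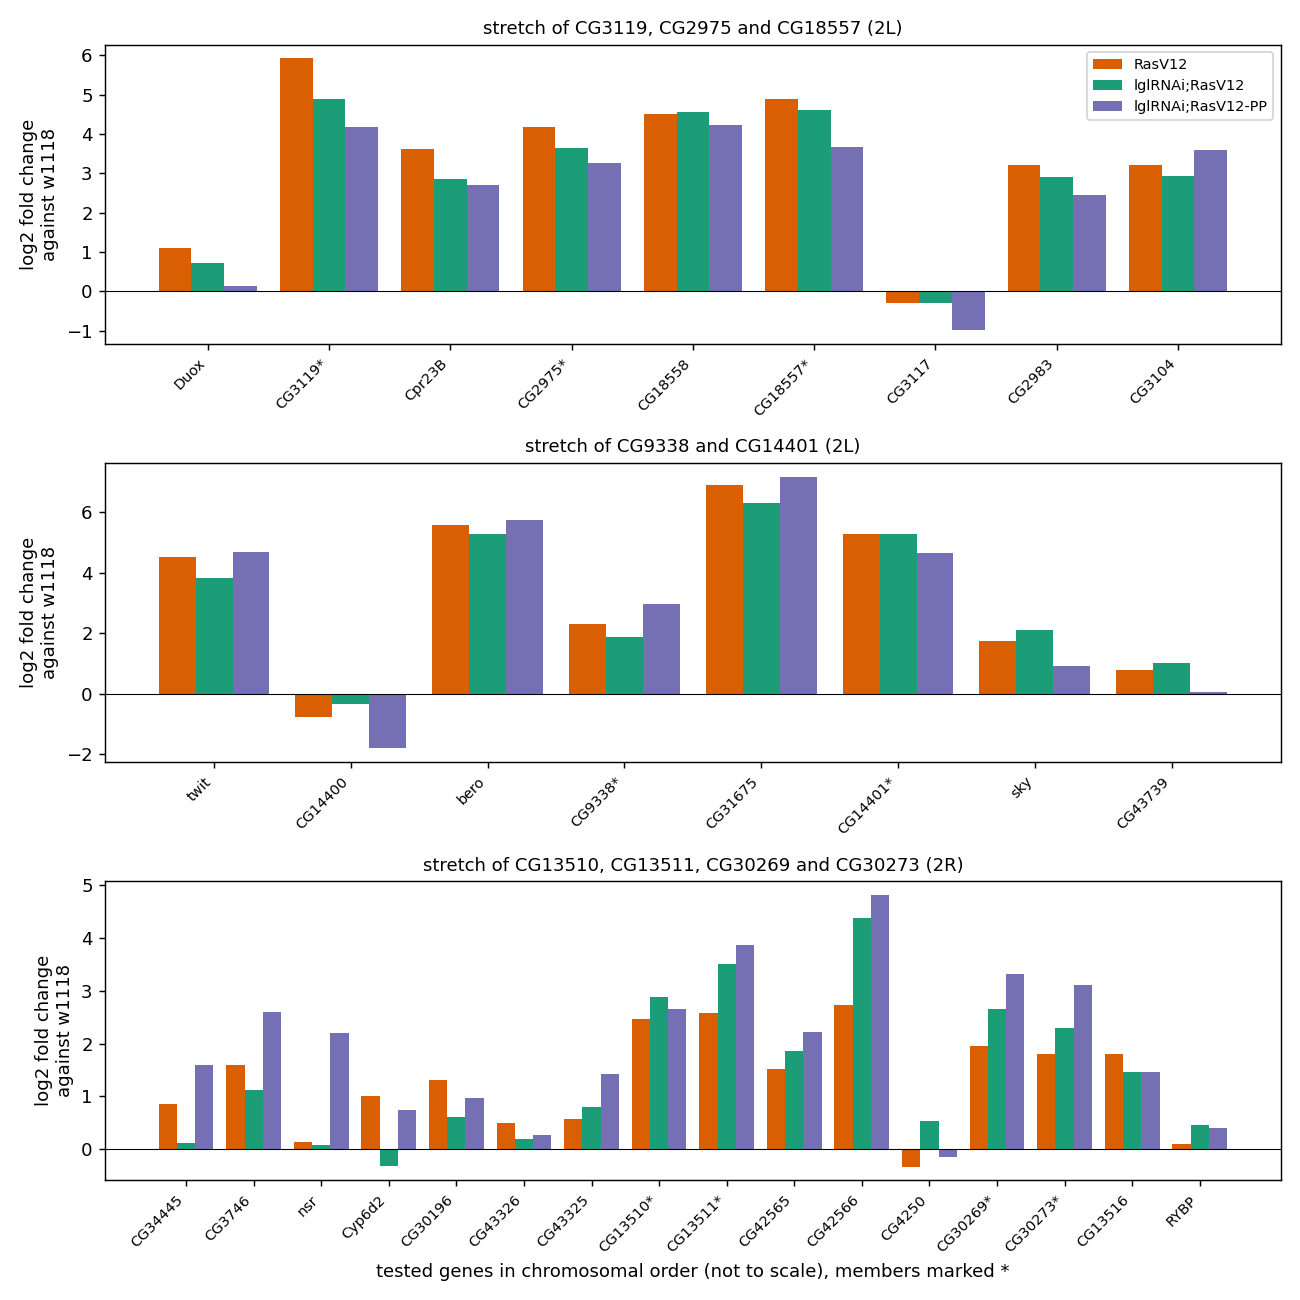
Log2 fold change against w1118-glands (bars, edgeR) in RasV12, lglRNAi;RasV12 and the PP for the tested genes of 3 stretches in chromosomal order, with the chosen genes marked by an asterisk. The stretches around the other pairs are not drawn. High bars include neighbours that were not chosen, such as Cpr23B (3.61 in RasV12) and bero (5.56), and are interrupted by genes such as CG3117 (-0.30 in RasV12) and CG14400.

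The main transcript of the 75 genes had a median length of 1162 bases, beside 1488 bases for the other CG-numbered genes with at least 5 TPM in the 3 groups, and 12 (16%) had a single exon, beside 12.96%. Exons of 30 of the 75 overlap those of another gene, 7 on the same and 24 on the opposite strand (1 gene has both), and since the libraries were made with a kit that does not mark strand, reads of opposite genes cannot be told apart there. Of the 48 genes with several annotated transcripts, 22 had at least 5 TPM in w1118-glands, so that the leading transcript could be compared. It was the same transcript in w1118-glands and in glands with RasV12 for 21 of them. The exception was CG10433, whose transcript FBtr0344882 made up 4.03%, 2.49% and 7.79% of the TPM of the gene in the 3 replicates of w1118-glands and 50.2%, 45.1% and 48.4% with RasV12, 46.7%, 51.04% and 52.3% with lglRNAi;RasV12 and 49.9%, 56.2% and 54.6% in the PP. All 9 libraries with RasV12 were above the 3 of w1118-glands. CG10433 overlaps an exon of a gene on the opposite strand, and how far this affects the shares was not tested.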

How the data were processed

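Poly(A) RNA of the 12 pools was sequenced from unstranded libraries. The authors pseudoaligned the reads with kallisto 0.44.0 to the transcripts of the fly annotation and analysed them with sleuth 0.30.0. They deposited estimated counts, which are not normalized and can be fractional, and the TPM that kallisto derived from them. Of 30503 transcripts, 30279 were matched to 13825 genes of the Ensembl annotation of dm6 (BDGP6.54); the other 224 held 0.197% to 0.359% of the counts.

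Counts and TPM were summed per gene. Rounded counts were tested with edgeR 4.0.16 in R 4.3.3 (TMM, minimum count of 10 by group, 9012 genes, quasi-likelihood test on all 12 libraries, Benjamini-Hochberg adjustment), with limits of 1 on the log2 fold change and 0.05 on the adjusted p. The step was tested on simulated data. Replicates were separate pools. The study's methods do not say whether equal replicate numbers mark a shared batch. Deviations of same-numbered RasV12 and w1118 libraries correlated at r = 0.242 to 0.364, and those of lglRNAi;RasV12 and w1118 at 0.217 to 0.262. For RasV12 and lglRNAi;RasV12 r ran from -0.175 to 0.385. With 3 libraries a group, these values cannot settle whether the numbers pair libraries.

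The genes and lists were chosen with earlier results of these data known. Genes given in full were the highest by level and by ratio, those called between entire glands, those furthest in the PP, and those within 10 kb of another (37 of 75). CG16978, CG3165, CG14715, CG17544, CG31523, CG6293, CG9119 and CG10916 were named outside this rule, after their values were seen. Alternatives were DESeq2 1.42.0, limma 3.58.1 on log2(TPM + 0.1) and log2(TPM + 1), other scalings, no filter, a replicate block, only the 2 groups compared, and each library left out. After seeing the data, a fit of only the libraries whose deposited tables share the number that ends their names was added.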

Additional observations from a re-analysis of the deposited data

Results flagged for a closer look

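Levels differed between RasV12- and lglRNAi;RasV12-glands for 3 of the 75 genes (adjusted p = 0.00194 to 0.0221, edgeR). This was 4% of the 75, beside 3.32% of all genes. Nothing is read from these shares, as the choice of genes bounds this difference. No group carried lglRNAi without RasV12, so a changed response to RasV12 cannot be told apart from an effect of lglRNAi alone or of the reporter. The log2 fold change, lglRNAi;RasV12 minus RasV12, was -1.79 for CG15784, -1.03 for CG3119 and 1.10 for CG32369. For CG15784 and CG3119 all 3 RasV12 libraries were above all 3 of lglRNAi;RasV12, and for CG32369 all 3 were below. The call of CG15784 held in every alternative, while those of CG3119 and CG32369 were lost in several.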

How the results depend on the processing

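Between entire lglRNAi;RasV12- and RasV12-glands, limma on log2(TPM + 0.1) or log2(TPM + 1) left 1 lower gene of the 75, and on log2(TPM + 1) 118 genes of all were higher and 53 lower, compared with 182 and 117. A fit of only the 2 groups left 0 higher (CG32369, adjusted p = 0.0609, edgeR, where DESeq2 called it at 0.00124). With 1 library left out, the 75 genes gave 0 to 1 higher and 1 to 5 lower, and all genes 110 to 180 higher and 72 to 133 lower. The replicate block gave 1 higher and 3 lower, adding CG13321 (log2 fold change -1.51), and changed no other call of the 75; for all genes it gave 196 and 116. Whether the replicate numbers pair these 2 groups is not known (r = -0.175 to 0.385 between same-numbered libraries). Among libraries whose deposited tables end in the same number (meaning not given; replicates 2 and 3 of RasV12 carry another than lglRNAi;RasV12), which leaves 1 RasV12 replicate assumed to vary like the other groups, 0 genes of the 75 were higher and 1 lower (CG15784, -2.16), and of all genes 37 and 23. The cause of these shifts was not tested beyond the smaller number of samples.

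The median log2 fold change of the 75 genes against w1118-glands was 2.93, 3.02 and 3.41 in RasV12, lglRNAi;RasV12 and the PP when scaled by library size alone, and 3.16, 3.37 and 3.50 with limma on log2(TPM + 0.1). With log2(TPM + 1) it was 3.00 in RasV12 and 2.97 in lglRNAi;RasV12. Under these scalings the median of all genes was 0.42 to 0.71. Leaving out 1 library gave 2.45 to 2.60, 2.42 to 2.69 and 2.83 to 3.04. For the PP against entire lglRNAi;RasV12-glands it gave -0.043 (without replicate 2 of the PP) to 0.27. The rule took 122 genes at 3 times, 42 at 6 times, 49 after division by the TMM factors, and 68 to 82 with 1 library left out. Counts of Ras/MAPK and JNK target genes stayed within 1.5 times. With 3 replicates a group, differences below the spread of the replicates were not detectable.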
